A study of Mus musculus with 13 samples.

Results

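The genes described here are 10 transcripts known to respond to glucocorticoids: Zbtb16, Fkbp5, Tsc22d3, Klf15, Cebpd, Hif3a, Glul, Mt1, Mt2 and Sgk1. They were chosen by their measured array levels, in particular by the direction of the difference between AP20187 and vehicle in white and in brown fat, so the values of these contrasts, and of any other that uses the same arrays, are a description and carry no test. All 10 genes were found, on 12 probes, among 15272 named genes and 27974 features tested. Each probe was placed through the accession in the scanner files, and the level of a gene is the log2 processed signal minus the 75th percentile of its array.

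The arrays held adipose tissue of male C57BL/6J mice whose ages the labels do not give. Fv2E-PERK mice carry a fusion of the kinase PERK, an endoplasmic reticulum stress sensor, to a domain that the ligand AP20187 dimerises, and the title of the series writes the transgene as mAP::Fv2E-PERK without saying which cells express it. White adipose tissue (WAT) came from Fv2E-PERK mice 12 h after an intraperitoneal injection of AP20187 at 100 ng/g (3 arrays) or of its vehicle, a mix of ethanol, PEG-400 and Tween-20 (2 arrays), and from untreated wild-type mice (3 arrays). Brown adipose tissue (BAT) came from Fv2E-PERK mice given AP20187 (2 arrays) or vehicle (2 arrays), with no wild-type counterpart. The injection protocol in the labels names muscle as the tissue collected, although each sample is labelled WAT or BAT. The labels do not say whether arrays of a group came from separate animals, so each SD and p-value covers the spread between arrays only. One further array with contradictory tissue labels was put in no group; its brown adipocyte markers averaged -1.20 and its mesothelial markers 2.50, against 4.81 to 6.82 and -5.14 to -4.33 on the BAT arrays and -2.60 to -0.03 and 1.18 to 2.64 on the WAT arrays.

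Glucocorticoids enter cells and bind the glucocorticoid receptor, encoded by Nr3c1, which moves to the nucleus and binds DNA at paired hexamers called glucocorticoid response elements (GRE). In adipose tissue the hormone acts on adipocyte differentiation, lipid storage and fuel use, and the enzyme Hsd11b1 regenerates active corticosterone inside the adipocyte. The metallothioneins Mt1 and Mt2 answer to glucocorticoids and also to zinc, through the factor Mtf1 and metal response elements.

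Promoters of 8 of the 10 genes, 15 promoters in all, were read from RefSeq on build GRCm38.p6, each reaching from 250 bases before to 50 bases after a gene start. A set of 3 motifs was searched on both strands: the GRE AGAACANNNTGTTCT, its half-site TGTTCT, and the loose metal response pattern TGCNCNC. Any base was allowed at each N, so a match to this pattern need not be a metal response element. The half-site lies inside the full element, so the 2 searches overlap. The promoters of Mt2 and Mt1 are shown because they carry several matches to the metal response pattern. Of the 6 Sgk1 promoters, number 5 is shown because it carries the full GRE. The Klf15 promoter is shown because Klf15 was the member whose arrays separated in both tissues. Capitals mark motif matches, those to the metal response pattern in Mt2, Mt1 and Klf15 and the GRE with its half-sites in Sgk1.
Mt2, chr8:94172368-94172667, plus strand: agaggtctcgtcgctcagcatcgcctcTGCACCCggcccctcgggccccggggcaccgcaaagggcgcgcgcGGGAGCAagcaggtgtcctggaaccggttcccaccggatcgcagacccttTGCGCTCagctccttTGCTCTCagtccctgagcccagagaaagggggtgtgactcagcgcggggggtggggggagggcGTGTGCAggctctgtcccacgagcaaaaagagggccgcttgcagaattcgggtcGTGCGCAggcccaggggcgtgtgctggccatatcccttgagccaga
Mt1, chr8:94178839-94179138, plus strand: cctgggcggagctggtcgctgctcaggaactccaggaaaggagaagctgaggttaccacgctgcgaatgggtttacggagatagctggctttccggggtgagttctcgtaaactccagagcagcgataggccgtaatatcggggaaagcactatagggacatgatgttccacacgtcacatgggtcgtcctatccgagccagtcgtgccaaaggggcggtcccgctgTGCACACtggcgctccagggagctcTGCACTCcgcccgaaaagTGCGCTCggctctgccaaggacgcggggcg
Sgk1, promoter 5, chr10:21993640-21993939, plus strand: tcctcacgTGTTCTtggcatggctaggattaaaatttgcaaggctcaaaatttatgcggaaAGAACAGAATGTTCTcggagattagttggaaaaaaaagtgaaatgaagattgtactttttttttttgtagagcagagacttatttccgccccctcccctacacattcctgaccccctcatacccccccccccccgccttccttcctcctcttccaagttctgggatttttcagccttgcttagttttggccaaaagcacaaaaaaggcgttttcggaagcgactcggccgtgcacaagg
Klf15, chr6:90462326-90462625, plus strand: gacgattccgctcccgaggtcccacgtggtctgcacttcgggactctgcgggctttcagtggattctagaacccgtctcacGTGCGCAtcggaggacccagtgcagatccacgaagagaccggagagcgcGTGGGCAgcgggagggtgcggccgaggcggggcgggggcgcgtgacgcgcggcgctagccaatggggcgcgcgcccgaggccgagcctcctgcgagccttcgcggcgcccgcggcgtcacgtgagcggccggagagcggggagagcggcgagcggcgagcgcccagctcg

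The full GRE was found in 1 of the 15 promoters, at bases -189 to -175 from the start of Sgk1 promoter 5, and in 3 of all 32851 mouse promoters of the same length (0.00913%). That Sgk1 promoter held 3 half-sites, of which 2 make up the GRE itself. The half-site occurred in 4 of the 15 promoters, which belong to Sgk1 and Tsc22d3, and in 19.0% of all promoters. The metal response pattern occurred in 9 of the 15, with at least 1 match in each of the 8 genes, and in 51.0% of all promoters. Mt2 held 6 matches to this loose pattern, against 3 in Mt1, and 2.30% of all promoters held 4 or more. A match is a string of letters in this window and says nothing of whether a factor binds there.

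**Figure D1:**
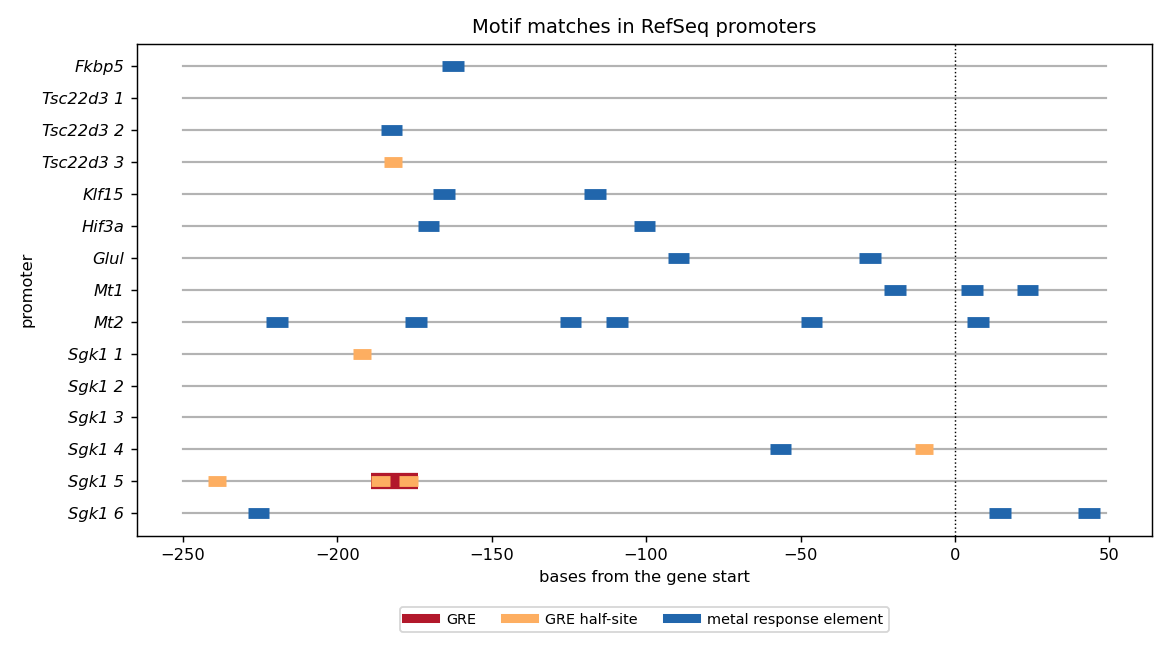
Motif matches in the 15 RefSeq promoters of 8 genes, drawn by distance in bases from the gene start (dotted line). Each grey line is 1 promoter, numbered where a gene has several. Red marks the GRE, orange its half-site and blue the loose metal response pattern. The GRE is seen only in Sgk1 promoter 5, and Mt2 has the most matches to the metal response pattern, 6.

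Signal and tissue content differed between arrays in ways that touch the values below. Between 46.4% and 64.0% of spots were well above background. Wild type 1 to 3 and WAT vehicle 1 shared slide 1, WAT vehicle 2 and the 3 WAT AP20187 arrays shared slide 2, and all BAT arrays lay on slide 3. Areas of weak signal covered 2.84%, 5.69% and 1.50% of the spots on WAT AP20187 arrays 1 to 3 and none on the other arrays. The 5 epididymal marker genes measured on all arrays, of 7 listed, had mean log2 levels of 8.94, 1.02 and -5.19 on WAT AP20187 arrays 1, 2 and 3, against -5.48 and -6.41 on the WAT vehicle arrays and -5.62 to -4.39 in wild type. The 5 liver markers averaged 4.58 on WAT vehicle array 2, against 0.74 on WAT vehicle array 1 and 0.19 to 2.03 with AP20187. The 5 brown adipocyte markers averaged 4.81 to 6.82 on the BAT arrays and -2.60 to -0.03 in WAT, and the 5 skeletal muscle markers averaged 3.33 and 4.23 in BAT with AP20187 and 0.80 and 5.01 in BAT with vehicle. In WAT the muscle markers averaged -0.72 on AP20187 array 2, against -4.30 and -4.05 with vehicle. On WAT AP20187 array 1 the 4 macrophage markers measured averaged 0.98 and the 5 endothelial markers 0.26, against 3.46 and 3.47, and 1.74 and 1.66, on the vehicle arrays; AP20187 arrays 2 and 3 had 3.66 and 3.33, and 2.01 and 1.79. The 3 adipocyte markers measured on all arrays, of 5 listed, averaged 7.74 to 8.82 in both tissues. In such bulk tissue, fewer cells of a type and less RNA per cell cannot be told apart.

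The first question was where the 10 genes stood in WAT 12 h after AP20187. Zbtb16, Tsc22d3, Klf15 and Hif3a were lower on all 3 AP20187 arrays than on both vehicle arrays, Cebpd was lower on average with overlapping arrays, and Mt1, Mt2 and Sgk1 differed by at most 0.25 on the log2 scale. Glul and Fkbp5 each rested on single spots, as described further on. The median difference over the 10 genes was -0.71, against 0.11 over all features, and 6 of the 10 were negative. Over all features 56.45% were positive. When the percentile was taken only over probes detected on every array, 9 of the 10 were negative, with a median of -1.01, against -0.19 over all features.

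Zbtb16 encodes the zinc-finger transcription repressor PLZF, a sensitive transcriptional marker of glucocorticoid exposure. Its log2 level was 1.24, 2.06 and 2.40 on the 3 WAT AP20187 arrays, against 4.65 and 4.82 with vehicle. In untreated wild-type WAT it was 4.15, 4.03 and 4.01. The AP20187 arrays all lay far below those of both other groups, and the vehicle arrays lay above those of wild type. The difference between AP20187 and vehicle was -2.84 (SE 0.52), a 7.14-fold lower level, and that between AP20187 and wild type was -2.16 (SE 0.47). Within slide 2, with slide as a fixed block, the AP20187 difference was -2.92, which rests on vehicle array 2 alone. It was -2.33 without the 2 arrays that carried epididymal transcripts, which rests on AP20187 array 3 alone.

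Tsc22d3, which encodes the leucine zipper protein GILZ and is a direct target of the glucocorticoid receptor, had log2 levels of 3.89, 4.41 and 4.76 in WAT with AP20187, against 5.79 and 5.78 with vehicle. Wild-type WAT gave 5.60, 5.39 and 5.46. All AP20187 arrays were lower than every array of the other 2 WAT groups, and the difference from vehicle was -1.43 (SE 0.38). Klf15, a Krüppel-like factor that acts on amino acid and glucose metabolism, had levels of 1.37, 2.07 and 1.85 with AP20187, against 2.36 and 2.77 with vehicle. Its wild-type levels of 1.76, 2.18 and 2.14 overlapped those of AP20187. The vehicle arrays alone stood higher, and AP20187 differed from vehicle by -0.80 (SE 0.25) and from wild type by -0.26 (SE 0.22). For Zbtb16, Tsc22d3 and Klf15 the lowest value was that of AP20187 array 1, which had the high epididymal and low macrophage and endothelial marker levels. Without that array the differences from vehicle were -2.51, -1.20 and -0.61.

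Hif3a, a hypoxia-inducible factor subunit that glucocorticoids induce, had log2 levels of -1.67, -1.86 and -2.28 in WAT with AP20187, against -0.67 and -1.53 with vehicle. The wild-type levels were -0.56, -0.84 and -0.05. The AP20187 arrays were the lowest of the 8 WAT arrays, with a difference from vehicle of -0.84 (SE 0.44). With slide as a fixed block it was -0.41, which rests on vehicle array 2 alone. Its other 2 probes were not well above background on most arrays and were not tested. Cebpd, an early transcription factor of adipocyte differentiation, had levels of 3.32, 4.06 and 4.41 with AP20187, against 4.77 and 4.31 with vehicle. AP20187 array 1, the one with the highest epididymal level, was the lowest for Cebpd. The mean difference of -0.61 (SE 0.35) became -0.13 without AP20187 arrays 1 and 2, which rests on array 3 alone. The part that epididymal tissue had in these values was not tested.

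Glul encodes glutamine synthetase. Its log2 level was 6.67, 0.20 and 5.77 on WAT AP20187 arrays 1 to 3, against 6.26 and 6.10 with vehicle. The low value was alone among the 12 arrays, and its spot lay in an area of weak signal. The mean difference was -1.97 (SE 1.56) with that spot and -0.01 with weak areas left out, an alternative chosen after seeing the data. Fkbp5, a co-chaperone that lowers the affinity of the glucocorticoid receptor for hormone, was 5.13 and 2.96 on WAT AP20187 arrays 1 and 3, against 3.96 and 3.54 with vehicle. The fit dropped array 2, where the spot was marked as an outlier and also lay in a weak area. The 2 remaining values lay on either side of the vehicle arrays, so the mean difference of 0.30 (SE 0.80) was smaller than its error and was -0.79 without array 1.

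Mt1 and Mt2 encode metallothioneins, zinc-binding proteins, and their genes neighbour each other on chromosome 8. Mt1 had log2 levels of 7.87, 7.76 and 7.83 in WAT with AP20187, against 7.92 and 7.41 with vehicle. Mt2 had 6.86, 5.51 and 7.03 with AP20187, against 6.86 and 6.05 with vehicle. The groups overlapped for both genes, and the differences were 0.16 (SE 0.44) and 0.01 (SE 0.74). The 2 transcripts are alike in sequence, and hybridisation of one to the probe of the other was not tested. Sgk1, a kinase that regulates sodium transport, had 2.72, 2.80 and 2.50 with AP20187, against 2.59 and 2.25 with vehicle, which also overlapped.

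Of the 10 genes, 1 (Zbtb16) was past an adjusted p of 0.05 in WAT in the limma fit, beside 1.88% of all features in either direction and 0.622% lower. The 4 genes whose AP20187 arrays all lay below the vehicle arrays stand beside 14.2% of all features. Nothing is read from these counts, since this contrast was used to choose the genes. The Zbtb16 call was lost in 10 of the 12 omissions of a single array, wild-type and BAT arrays among them, with a log2 difference between -3.09 and -2.51 over all 12 omissions. Scaling moved the background itself: 351 features were called higher and 174 lower, against 13 higher and 470 lower when the percentile was taken over detected probes only.

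**Figure D2:**
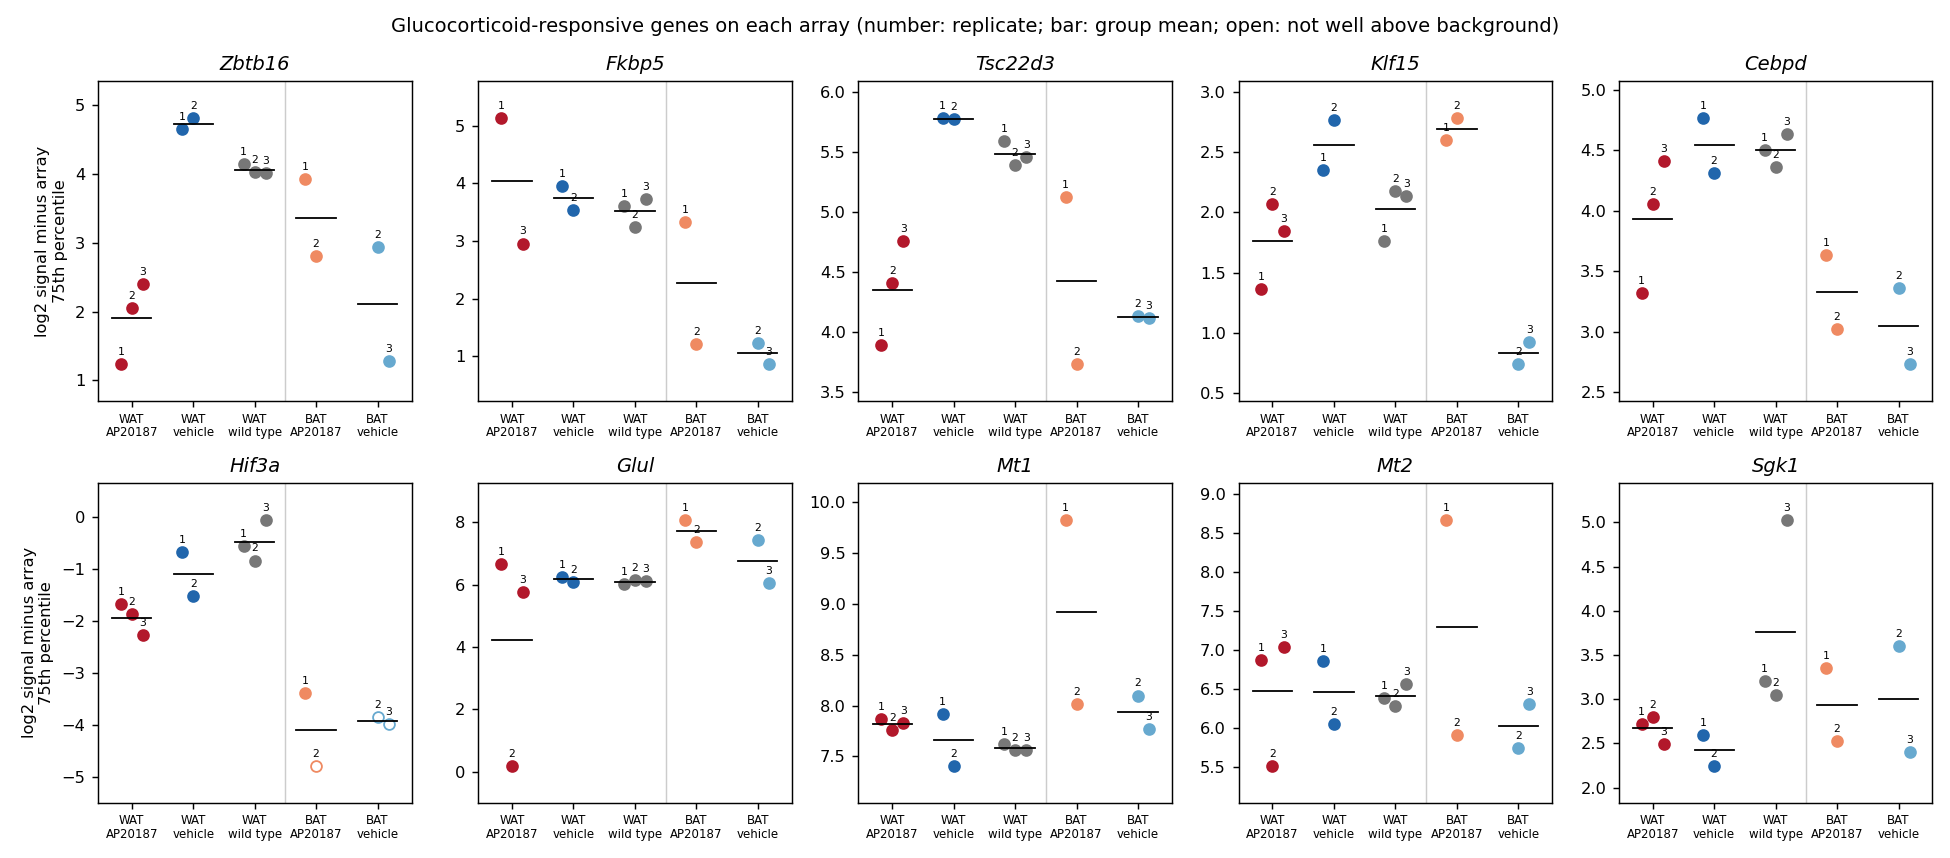
Level of the 10 genes on each array, as log2 processed signal minus the array's 75th percentile, in WAT with AP20187, vehicle or wild type and in BAT with AP20187 or vehicle. Points are arrays with their replicate number, bars are group means, open points were not well above background. Zbtb16 sits at 1.24 to 2.40 with AP20187 in WAT, below every other WAT array, while Klf15 in BAT sits at 2.61 and 2.79 with AP20187 and at 0.74 and 0.92 with vehicle.

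In BAT the same genes were mostly higher with AP20187 than with vehicle. The median difference was 0.98, against -0.04 over all features, and 8 of the 10 were positive, beside 45.41% of all features. Klf15 had log2 levels of 2.61 and 2.79 with AP20187, against 0.74 and 0.92 with vehicle, a difference of 1.87 (SE 0.27) or 3.65-fold. It was the 1 gene of the 10 whose BAT arrays did not overlap, where 15.5% of all features were higher without overlap. None of the 10 passed the threshold in limma, beside 0.00357% of all features (1 gene of the 10 at an unadjusted p under 0.05, beside 7.31% of all features).

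Of the other genes, Mt1, Mt2, Fkbp5 and Tsc22d3 had higher BAT means mainly through AP20187 array 1. Mt1 was 9.83 and 8.01 on AP20187 arrays 1 and 2, against 8.10 and 7.77 with vehicle. Mt2 was 8.67 and 5.91, against 5.73 and 6.30. Fkbp5 was 3.33 and 1.21, against 1.23 and 0.87. For these 3 genes array 1 stood well above all others, and array 2 lay within or close to the range of the vehicle arrays. Tsc22d3 was 5.12 and 3.73 with AP20187, against 4.14 and 4.11 with vehicle, so that the 2 AP20187 arrays lay on opposite sides of the vehicle arrays. Zbtb16 was 3.92 and 2.81, against 2.93 and 1.29, with a difference of 1.25 (SE 0.57) and arrays that overlapped.

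Glul was 8.08 and 7.37 in BAT with AP20187, against 7.44 and 6.05 with vehicle. Cebpd was 3.63 and 3.02, against 3.36 and 2.73. Sgk1 was 3.35 and 2.52, against 3.60 and 2.40. Each of these 3 had overlapping arrays. Hif3a was near background in BAT, at -3.40 on AP20187 array 1 and not well above background on AP20187 array 2 or on either vehicle array, so no fold is given.

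Counted over the genes, BAT AP20187 array 1 was above array 2 for 9 of the 10, against 46.9% of all features, and Klf15 was the exception. Array 1 was above both vehicle arrays for 9 of the 10 (28.3% of all features), Sgk1 being the exception, whereas array 2 was above both for 1 of the 10, Klf15 (31.4% of all features). The 9 genes are not replicates of the condition, because they were read from the same array. The other glucocorticoid targets described below had the higher level on array 1 in 20 of 27 cases. The BAT mean differences without array 1 were 0.08 for Mt1, -0.11 for Mt2, 0.16 for Fkbp5, 0.70 for Zbtb16, -0.39 for Tsc22d3 and 1.96 for Klf15. Without it 5 of the 10 genes were positive in BAT, with a median difference of 0.03. The low vehicle array 3 mattered as well. When that array was left out instead, 7 of the 10 were positive, with a median of 0.36. The BAT difference was then 0.43 for Zbtb16 and 0.29 for Glul, against 0.70 and 0.63 without AP20187 array 1.

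**Figure D3:**
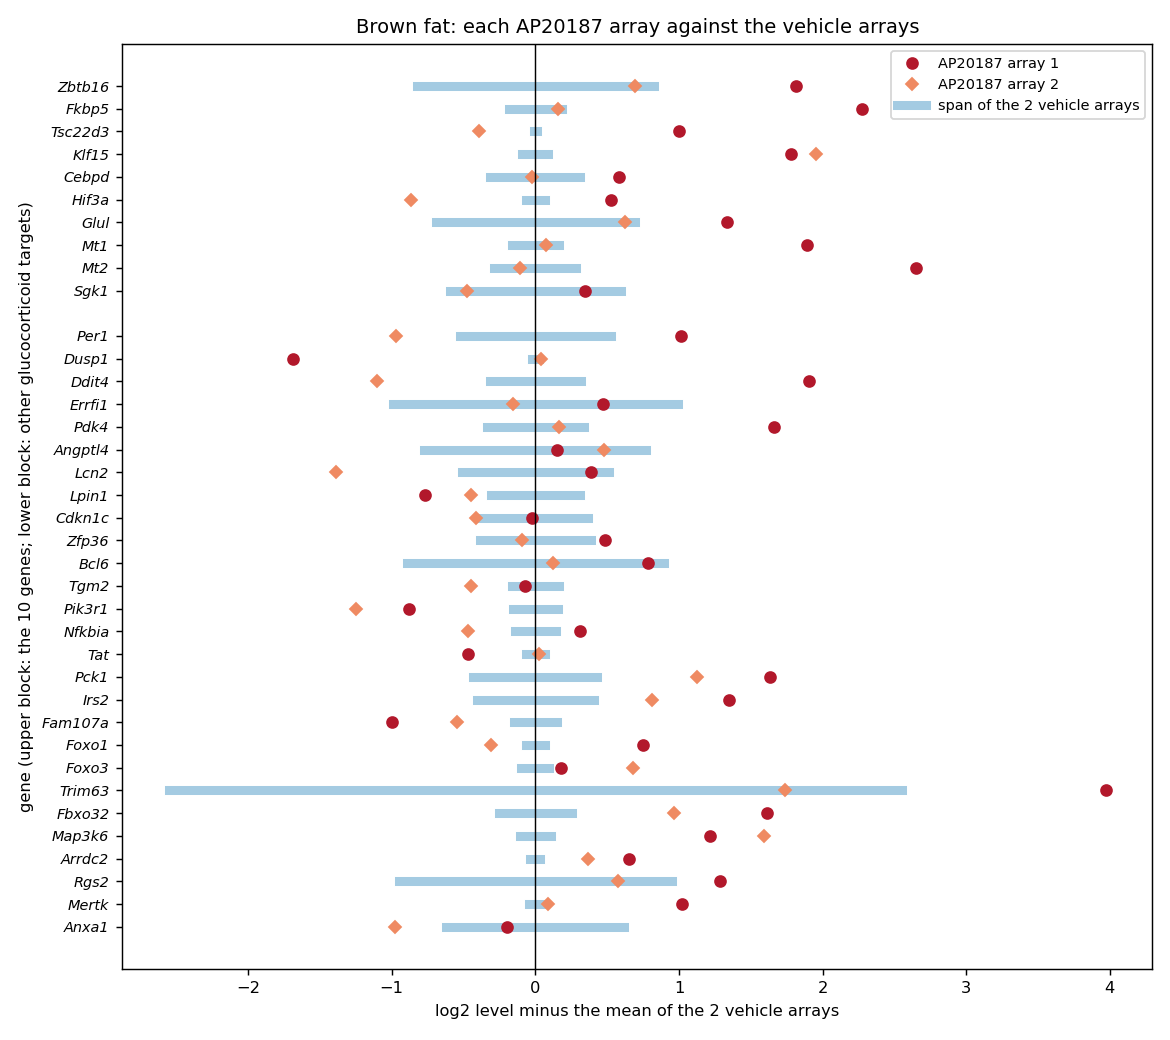
Log2 level of each gene on the 2 BAT AP20187 arrays (circles, array 1; diamonds, array 2) minus the mean of the 2 BAT vehicle arrays, whose span is the pale bar. The upper block holds the 10 genes and the lower block 27 other glucocorticoid targets. Array 1 lies to the right of array 2 for 9 of the 10 genes and for 20 of the 27 other targets.

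Set side by side, the AP20187 difference was lower in WAT than in BAT for 9 of the 10 genes, Sgk1 being the exception. Hif3a, which was near background in BAT, is counted among the 9. The median of the WAT minus BAT difference was -1.09, against 0.13 over all features, of which 56.4% were positive. Without BAT AP20187 array 1 the difference was lower in WAT for 5 of the 10, with a median of -0.28. Klf15 differed by -0.80 in WAT and 1.87 in BAT, a gap of -2.67 (SE 0.37). Zbtb16 differed by -2.84 in WAT and 1.25 in BAT, a gap of -4.09 (SE 0.77), and Tsc22d3 by -1.43 and 0.30, a gap of -1.73 (SE 0.57). Of the 10 genes, 1 (Klf15) had arrays that separated in opposite directions in the 2 tissues, beside 9.73% of the features well above background in each of the 4 groups. None of the 10 passed the threshold for this gap in limma, where 0% of all features did (3 of the 10 at an unadjusted p under 0.05, beside 16.4% of all features). The opposite directions of the tissues were the reason for choosing the genes and are given as a description.

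**Figure D4:**
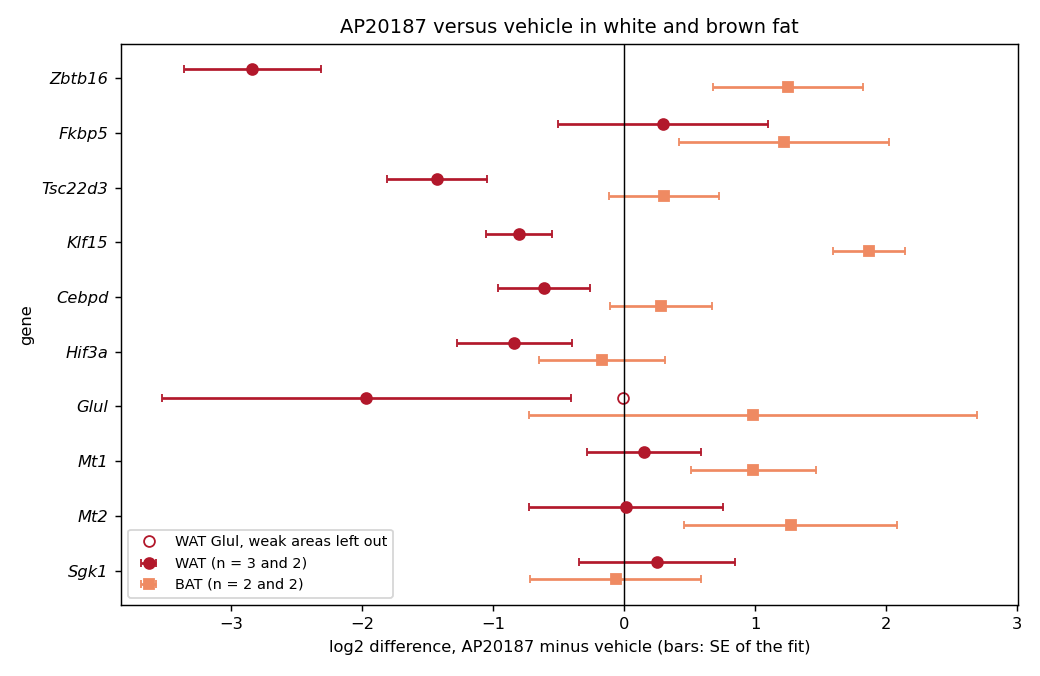
Log2 difference, AP20187 minus vehicle, of the 10 genes in WAT (circles) and BAT (squares), with the standard error of the limma fit as bars. The open circle is Glul in WAT with weak areas left out, at -0.01. Zbtb16, Tsc22d3 and Klf15 lie left of 0 in WAT (-2.84, -1.43 and -0.80) and right of 0 in BAT (1.25, 0.30 and 1.87).

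The 2 contrasts without ligand rest on the same vehicle arrays as those above, so a gene chosen for a fall in WAT and a rise in BAT tends to be high in vehicle WAT and low in vehicle BAT. Their values are therefore also a description. In the first, WAT of vehicle-treated Fv2E-PERK mice was set against WAT of untreated wild-type mice, which differ in genotype and injection. Vehicle array 1 shared slide 1 with the wild-type arrays, while vehicle array 2 lay on slide 2. In limma 0 of the 10 genes passed the threshold (0 at an unadjusted p under 0.05), beside 0.0429% of all features called. The difference was 0.67 (SE 0.52) for Zbtb16 and 0.54 (SE 0.25) for Klf15. Sgk1 was 2.59 and 2.25 with vehicle, against 3.21, 3.04 and 5.03 in wild type, a difference of -1.34 (SE 0.60). Wild-type array 3 alone carried the highest Sgk1 level of the 12 arrays, and without it the difference was -0.71. The vehicle arrays lay above all wild-type arrays for Zbtb16, Tsc22d3 and Klf15, where 19.4% of all features did, and below them for Sgk1, where 15.2% did.

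In the second, vehicle BAT was set against vehicle WAT. All of BAT lay on slide 3, so tissue and slide cannot be told apart. Of the 10 genes, 6 had a lower level in BAT that passed the threshold in limma, beside 8.72% of all features called lower and 21.8% called in either direction, and nothing is read from this count. The split over all features was 3657 higher and 2439 lower, and 2787 higher and 3709 lower with the percentile over detected probes. Klf15 averaged 0.83 ± 0.13 in vehicle BAT and 2.56 ± 0.29 in vehicle WAT (SD, n = 2 each), a difference of -1.73 (SE 0.27). Zbtb16 averaged 2.11 ± 1.16 in BAT and 4.74 ± 0.12 in WAT, a difference of -2.63 (SE 0.57). Hif3a was not well above background on either BAT array. Its measured signals there gave a 7.08-fold lower level, which is an estimate from dim spots and not a bound. Hif3a had passed the filter on dim probes through its WAT arrays, so it could only be lower in BAT.

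Tsc22d3 (-1.66), Cebpd (-1.49) and Fkbp5 (-2.70) were the other 3 of these 6 genes. On both BAT arrays each of the 6 genes lay below both WAT arrays, where 29.9% of all features did. The count was 2 to 6 with 1 array left out. The differences of the remaining genes were 0.57 for Glul, 0.27 for Mt1, -0.44 for Mt2 and 0.58 for Sgk1, and for each of these 4 the BAT and WAT arrays overlapped.

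By group mean, Zbtb16 ran from WAT with vehicle (4.74 ± 0.12, SD, n = 2) through wild-type WAT (4.06 ± 0.08, n = 3), BAT with AP20187 (3.36 ± 0.79, n = 2) and BAT with vehicle (2.11 ± 1.16, n = 2) to WAT with AP20187 (1.90 ± 0.60, n = 3). The last 2 groups, and BAT with AP20187 and BAT with vehicle, lay within their spread. Klf15 had its highest mean in BAT with AP20187 (2.70 ± 0.13, n = 2), close to WAT with vehicle (2.56 ± 0.29, n = 2), and its lowest in BAT with vehicle (0.83 ± 0.13, n = 2). Mt1 and Glul had their highest means in BAT with AP20187, at 8.92 ± 1.28 and 7.73 ± 0.50 (n = 2), and for both genes BAT with vehicle overlapped that group.

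The other parts of the glucocorticoid pathway were read from 3 lists. Nr3c1, the receptor itself, averaged 4.88 ± 0.45 in WAT with AP20187 (SD, n = 3) and 4.98 ± 0.18 with vehicle (n = 2), and 4.62 ± 0.03 in BAT with AP20187 and 4.47 ± 0.26 with vehicle (n = 2 each). Its AP20187 difference was -0.10 (SE 0.29) in WAT and 0.15 (SE 0.31) in BAT. Hsd11b1 averaged 5.98 ± 0.93 in WAT with AP20187 and 5.55 ± 0.15 with vehicle, and 5.87 ± 0.32 in BAT with AP20187 and 6.20 ± 0.48 with vehicle. Neither gene passed in either tissue (adjusted p from 0.60 to 1 in limma), and the AP20187 and vehicle arrays of both overlapped. Of the 12 genes listed for the receptor, its chaperones, its co-regulators and steroid handling, 11 were tested and 0 passed in WAT or BAT, with 1 and 2 at an unadjusted p under 0.05, beside 22.5% of all features in WAT and 7.31% in BAT.

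Of 27 other glucocorticoid targets, 0 passed in WAT and 0 in BAT in limma, with 6 and 5 at an unadjusted p under 0.05, beside the same 22.5% and 7.31%. In WAT 16 were negative and 11 positive with a median of -0.13, and in BAT 10 were negative and 17 positive with a median of 0.22. Over all features 56.45% were positive in WAT, with a median of 0.11, and 45.41% in BAT, with a median of -0.04. Their arrays separated downwards for 8 genes in WAT (14.2% of all features) and upwards for 7 genes in BAT (15.5% of all features). They separated the other way for 1 gene in WAT and 3 genes in BAT, for which no share over all features is given. Per1, a clock gene with direct receptor control, averaged 3.09 ± 0.18 in WAT with AP20187 (n = 3), 3.47 ± 0.04 with vehicle (n = 2) and 4.24 ± 0.04 in wild type (n = 3). Its AP20187 difference was -0.38 (adjusted p = 0.667 in limma) in WAT and 0.02 (adjusted p = 1) in BAT.

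Pdk4, which restrains pyruvate oxidation, averaged 2.05 ± 0.67 in WAT with AP20187 (n = 3) and 2.97 ± 0.01 with vehicle (n = 2), a difference of -0.92 (adjusted p = 0.304 in limma), and its spot on AP20187 array 1 lay in a weak area. In BAT it was 8.21 and 6.71 with AP20187, against 6.21 and 6.88 with vehicle, again with array 1 as the highest. Pdk4 was 3.57 higher in vehicle BAT than in vehicle WAT (adjusted p = 0.00262 in limma), opposite in sign to the 6 genes above. Of the 27 other targets, 3 were called higher and 4 lower in vehicle BAT, beside 13.1% and 8.72% of all features. Dusp1, a phosphatase of stress kinases, differed by -0.06 in WAT and -0.83 in BAT (adjusted p = 0.954 and 0.859 in limma). Unlike 9 of the 10 genes, Dusp1 was lowest in BAT on AP20187 array 1, at 1.39, against 3.12 on array 2 and 3.05 to 3.11 with vehicle.

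Of 8 metal and zinc genes apart from Mt1 and Mt2, 7 were tested and 0 passed in WAT or in BAT, with 1 in each at an unadjusted p under 0.05 (22.5% and 7.31% of all features). Slc30a1, a zinc exporter and target of Mtf1, averaged 1.32 ± 0.11 in WAT with AP20187 (n = 3) and 0.94 ± 0.24 with vehicle (n = 2), a difference of 0.38 (adjusted p = 0.342 in limma). In BAT its difference was 0.13 (adjusted p = 1). Mtf1 was -5.68 on WAT AP20187 array 2, in a weak area, against 0.41 and 0.82 with vehicle, while its BAT difference was -0.09.

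The genes most like 3 of the 10 across the WAT arrays were found by Pearson's r, as a description of arrays that share slides and groups. Zbtb16 was closest to Meg3 (r = 0.995), Tnfrsf25 (r = 0.978) and Rin3 (r = 0.972) over 8 arrays, among 14073 genes. Rin3 was dim, averaging -5.65 in WAT with AP20187, -4.27 with vehicle and -4.38 in wild type. Meg3, an imprinted non-coding RNA, averaged 0.35 in WAT with AP20187, 2.48 with vehicle and 1.95 in wild type. In BAT, however, Meg3 averaged -0.53 with AP20187 and 0.40 with vehicle, a difference opposite in sign to that of Zbtb16. Genes close to Mt1 included Tmem123 (r = 0.971) and Rcc1l (r = 0.936). For Fkbp5, over the 7 arrays that measured it, the closest were Fam71e1 (r = 0.989), Foxred2 (r = 0.983) and Dpp4 (r = 0.981), and these values follow AP20187 array 1, which had the highest Fkbp5 level.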

How the data were processed

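Total RNA of 13 samples was labelled and read on Agilent arrays of 1 colour (design build mm9). The deposited values are intensity; per the file headers, the scanner software (Agilent Feature Extraction 10.7.1.1, also in the submitters' processing notes) subtracted background and removed spatial trend. The log2 of the deposited processed signal, minus the array's 75th percentile, was then computed after control and outlier spots were dropped and spots of a probe averaged. The deposited value table was an alternative only; it matched the processed intensity within 0.1% for 99.0% to 99.2% of its values. The 2 issues of the array design differ in 7336 accessions; a probe was named where its accessions gave 1 gene (26574 of 55681 probes, through RefSeq).

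Probes had to be well above background throughout at least 1 group, the brightest probe of a gene was used, and 12 arrays in 5 groups were fitted with limma 3.58.1 in R 4.3.3 (Benjamini-Hochberg over all features, threshold 0.05). Array numbers limit the precision. The 10 genes, the further lists and the tests were chosen with earlier results of these data known. The text names the 10 genes, listed genes past the threshold with AP20187, otherwise Nr3c1, Hsd11b1, Per1, Dusp1, Pdk4, Mtf1 and Slc30a1, and the 3 genes most correlated with Zbtb16, Fkbp5 and Mt1 (1 of them is not reported here); all others were chosen after their values were seen. The fit was tested on simulated data. Alternatives covered scaling, background, filters, probes, slide, replicate number, the contradictory array and each array left out; leaving out weak areas was added after seeing the data.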

Additional observations from a re-analysis of the deposited data

Results flagged for a closer look

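For 4 of the 55 genes tested across the 10 genes and the 3 further lists, every AP20187 array lay on one side of the vehicle arrays in WAT and on the opposite side in BAT. Of the 55, 49 were well above background on at least 1 array of each of these 4 groups, and only those were counted. Over all such features the same held for 2042 of 20981 (9.73%), so the 4 genes stand near the background. Klf15 had a WAT difference minus BAT difference of -2.67 on the log2 scale. This difference did not pass the threshold in limma. No test is read from it, because the gene was chosen with it in view. The other 3 genes were chosen after their values were seen. In limma the difference was -2.83 for Pck1, the gluconeogenic and glyceroneogenic enzyme PEPCK (adjusted p = 0.129), -2.26 for Map3k6, a stress kinase (adjusted p = 0.118, with 1 WAT AP20187 array missing), and -1.69 for Mertk, a receptor kinase of phagocytes (adjusted p = 0.141, with 1 WAT AP20187 spot in a weak area). None of these 3 passed the threshold of 0.05. The arrays of the tissues lie on different slides.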

How the results depend on the processing

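The signs of the WAT differences of Zbtb16, Tsc22d3 and Klf15 and of the BAT difference of Klf15 were the same under every alternative run. In WAT, AP20187 versus vehicle, 1 of the 10 genes (Zbtb16) passed. The count was 0 under quantile scaling, normexp with quantile scaling, the deposited value table, the mean of a gene's probes, slide as a fixed block, a replicate block, the contradictory array counted as BAT vehicle, and WAT AP20187 arrays 1 and 2 left out. It was 2 with the percentile over detected probes (Klf15 and Zbtb16; 1.73% of all features called), and 2 (Tsc22d3 and Zbtb16) with no filter, with the strictest filter or with slide as a random block, where 19.6%, 8.08% and 5.91% of all features were called. Leaving out 1 array gave 0 to 1. In BAT 0 of the 10 passed. For the WAT minus BAT difference 0 passed, and 1 (Klf15) with the percentile over detected probes, where 0.0786% of all features were called. For both of these contrasts, counts from fits that left 1 array in a group are not given. Between vehicle BAT and vehicle WAT 6 of the 10 passed, 2 (Hif3a and Klf15) with the replicate block, where 14.3% of all features were called, and 2 to 6 with 1 array left out. With the contradictory array as BAT vehicle 0 of the 10 and 0% of all features passed, and that array had brown adipocyte markers at -1.20, against 4.81 to 6.82 on the BAT arrays. For the other glucocorticoid targets in WAT, where 0 passed, the count was 2 with the percentile over detected probes, 3 with no filter, 2 with the strictest filter, 2 with slide as a random block and 1 with the contradictory array as WAT vehicle (8.15% of all features called), beside the shares above for the other settings. Whether the replicate numbers pair arrays cannot be told. Within a tissue, deviations of same-numbered arrays from their group means correlated at -0.22 to 0.10. Groups of 2 arrays have mirror-image deviations, and WAT was not compared with BAT, so a pairing is not excluded. The percentile over detected probes moved the WAT median over all features to -0.19, against 0.11 in the main fit. With the same percentile the WAT difference of Sgk1 was -0.05. Over all features the count called in WAT was 525, and 0 to 2275 with 1 array left out, 9 with quantile scaling and 22 with slide as a fixed block. The cause of these changes was not tested.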

Other observations

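The array with contradictory labels, whose title and tissue label say BAT and whose source name says WAT, gave log2 levels of 4.23 for Zbtb16, 3.40 for Fkbp5, 5.17 for Tsc22d3, 2.06 for Klf15 and 4.10 for Cebpd. It gave -1.33 for Hif3a, 5.97 for Glul, 7.76 for Mt1, 6.37 for Mt2 and 2.66 for Sgk1.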
